A study of Mus musculus with 6 samples.

Results

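Red blood cell genes were read in thymocytes, the developing T cells of the thymus, through 9 genes: *Alas2*, *Fech*, *Tfrc*, *Slc4a1*, *Epb42*, *Ermap*, *Car2*, *Klf1* and *Gata1*. Every probe set whose platform annotation names exactly 1 of these genes was taken, which gave 20 of the 22690 probe sets on the array. Of these, 3 were Affymetrix control probe sets for *Tfrc* and stayed outside the test. Of the other 17, 11 passed a filter on low values and were tested, and they covered 8 of the 9 genes. The mice of both groups were untreated 3-week-old C57BL6 animals that lack *Cd3e*, so that their thymocytes carry no working pre-T-cell receptor and stop at an early double negative stage (DN3). In 3 arrays the mice also carried *SCL* driven by the *Sil* promoter and *LMO1* driven by the *Lck* promoter (Sil-SCL Lck-LMO1), and 3 arrays were of *Cd3e*-/- controls without transgenes. RNA came from thymocytes of the dissected thymus with no erythroid cells sorted out, and was amplified and hybridized to Affymetrix mouse genome arrays. Nothing in the labels or methods states that each array of a group was a separate animal, so p-values measure only the spread between these arrays.

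Red blood cells are loaded with hemoglobin, a complex of globin chains and heme. Iron enters the developing red cell through the transferrin receptor (*Tfrc*), ALAS2 starts heme synthesis in the mitochondrion, and ferrochelatase (*Fech*) inserts the iron at the last step. The finished cell exchanges bicarbonate for chloride through band 3 (*Slc4a1*), which is held to the membrane skeleton with protein 4.2 (*Epb42*), while carbonic anhydrase II (*Car2*) forms the bicarbonate in the cytosol. The transcription factors GATA1 and KLF1 switch these genes on, and SCL, also called TAL1, works beside GATA1 in the same cells. A thymus holds few erythroid cells next to its thymocytes, but blood left in the tissue brings red cells and their RNA. In such bulk RNA, fewer cells of a type and less RNA per cell cannot be told apart.

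Promoter windows of 6 of the 9 genes were read from RefSeq (GRCm38.p6), each with 250 bases before and 50 bases after an annotated start. They were searched on both strands for GATA words, spelled as A or T, then GATA, then A or G. *Alas2*, *Ermap*, *Epb42* and *Klf1* each held 1 such word, *Tfrc* (in both of its windows) and *Gata1* held 0, and 29.8% of the 32851 windows in the table held at least 1. The word CACCC, whose letters KLF1 can bind, was in the windows of *Alas2* (3 times), *Klf1* (2 times), *Gata1* (2 times), *Ermap* (1 time) and *Tfrc*, but not in that of *Epb42*, and in 57.5% of all windows. Windows of *Ermap*, *Epb42* and *Klf1* also held the spaced pair CTG with GATA 8 or 9 bases further on, which complexes of SCL and GATA1 are known to bind, against 4.69% of all windows. This pair can share its GATA letters with a GATA word. The 250 bases before the start are shown for *Alas2* (chrX:150547167-150547416, plus strand), for *Ermap* (chr4:119189996-119190245, minus strand) and for *Klf1* (chr8:84901732-84901981, plus strand), each read 5′ to 3′ along its gene. They were chosen because their GATA words lie within 100 bases of the start, at −86, −67 and −80, and because they stand for a heme gene, a membrane gene and a regulator. Capitals mark the GATA word, here read on the opposite strand.
Alas2 promoter: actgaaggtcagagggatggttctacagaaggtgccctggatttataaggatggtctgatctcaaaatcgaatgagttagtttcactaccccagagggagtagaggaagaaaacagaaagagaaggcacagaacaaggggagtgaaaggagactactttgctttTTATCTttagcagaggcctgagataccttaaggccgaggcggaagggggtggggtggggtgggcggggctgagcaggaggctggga
Ermap promoter: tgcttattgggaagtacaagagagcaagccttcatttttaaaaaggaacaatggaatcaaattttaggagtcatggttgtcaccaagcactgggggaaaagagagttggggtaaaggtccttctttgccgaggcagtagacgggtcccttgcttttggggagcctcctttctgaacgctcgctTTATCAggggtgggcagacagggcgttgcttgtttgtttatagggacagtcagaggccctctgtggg
Klf1 promoter: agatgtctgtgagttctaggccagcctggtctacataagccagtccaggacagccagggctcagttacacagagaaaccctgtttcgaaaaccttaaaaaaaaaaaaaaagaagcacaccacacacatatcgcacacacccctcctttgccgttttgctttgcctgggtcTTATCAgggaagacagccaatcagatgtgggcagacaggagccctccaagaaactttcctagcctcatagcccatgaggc

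Before the erythroid genes, the targeted genes were read as a check of the labels. *Lmo1*, whose transgene the arrays labelled *SCL-LMO1* should carry, had 5.11, 5.07 and 4.86 in the 3 arrays labelled *SCL-LMO1*, against 6.64, 6.84 and 6.77 in the 3 arrays labelled control (log2 values). It was lower in every array labelled *SCL-LMO1*, by −1.74 on the log2 scale (SE 0.14, limma adjusted p = 0.00161), which goes against the labels. This probe set of *Lmo1* passed the filter on low values only through the 3 arrays labelled control. It could hardly have entered the test without differing, so its adjusted p is no support. Whether its probes detect the transgene, and whether the labels are exchanged, was not tested. *Tal1*, the mouse *SCL* gene, lay under the filter at 4.55 to 4.71 in arrays labelled *SCL-LMO1* and 4.27 to 4.44 in arrays labelled control. *Cd3e* averaged 8.58 ± 0.06 in arrays labelled *SCL-LMO1* and 8.52 ± 0.18 in arrays labelled control (SD, n = 3 each), although both groups are deleted for it, and where its probes lie relative to the deletion was not tested. Other genes whose direction here is opposite to the study's are *Slc4a1*, *Nfe2* and *Lyl1*, and *Ptcra*, which the study describes as inhibited by SCL, was higher in arrays labelled *SCL-LMO1*. Arrays are therefore named by their labels throughout, and each direction below rests on those labels. Median log2 values were 5.57 to 5.66 in arrays labelled *SCL-LMO1* and 5.60 to 5.70 in arrays labelled control. The log2 signal of the 3′ minus the 5′ control probe set for *Actb* was 1.48 in control replicate 2. It was 2.26 to 2.86 in the other arrays. For *Gapdh* the value was 2.38 in control replicate 2, against 3.01 to 3.51 in the other arrays. The part of this in the erythroid values was not tested. The bacterial hybridization controls split the arrays across the groups, with high signal (10.24 to 10.45) in the first array labelled *SCL-LMO1* and the last 2 labelled control, and low signal (8.64 to 9.19) in the other 3. These are called the high and the low set.

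None of the 11 tested erythroid probe sets passed limma at a Benjamini-Hochberg adjusted p under 0.05, beside 14 of all 13776 probe sets tested (0.102%, with 0.0508% higher and 0.0508% lower). At an unadjusted p under 0.05, 4 of the 11 were higher in arrays labelled *SCL-LMO1* and 0 were lower, beside 6.18% and 2.67% of all probe sets. Those 4 were both tested probe sets of *Slc4a1*, with *Car2* and *Ermap*. Of the 11, 8 lay above 0, beside 49.8% of all probe sets tested, and 5 differed by 0.5 or more, beside 5.39%. The median log2 difference over the 11 was 0.40, beside −0.0006 over all probe sets tested. *Slc4a1* and *Car2* held the largest differences (1.07 to 1.90), *Alas2* and *Ermap* came next (0.55 and 0.53), and the regulators *Klf1* and *Gata1* differed by −0.03 and 0.14. In counts added after seeing the data, without *SCL-LMO1* replicate 3, 2 of the 11 had an unadjusted p under 0.05 and were higher, beside 2.56% of all probe sets, 8 lay above 0 (51.3%) and 3 differed by 0.5 or more (3.42%). The 2 were *Slc4a1* 1434502_x_at and *Car2*. *Slc4a1* 1434502_x_at passed the filter only through the arrays in which it was high. Without this probe set the median difference was 0.38, and 7 of 10 lay above 0. Of the same 10, 3 had an unadjusted p under 0.05 and were higher, and 4 differed by 0.5 or more. Among these 10, 2 were higher with no overlap between the groups, beside 7.36% of all probe sets tested.

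**Figure D1:**
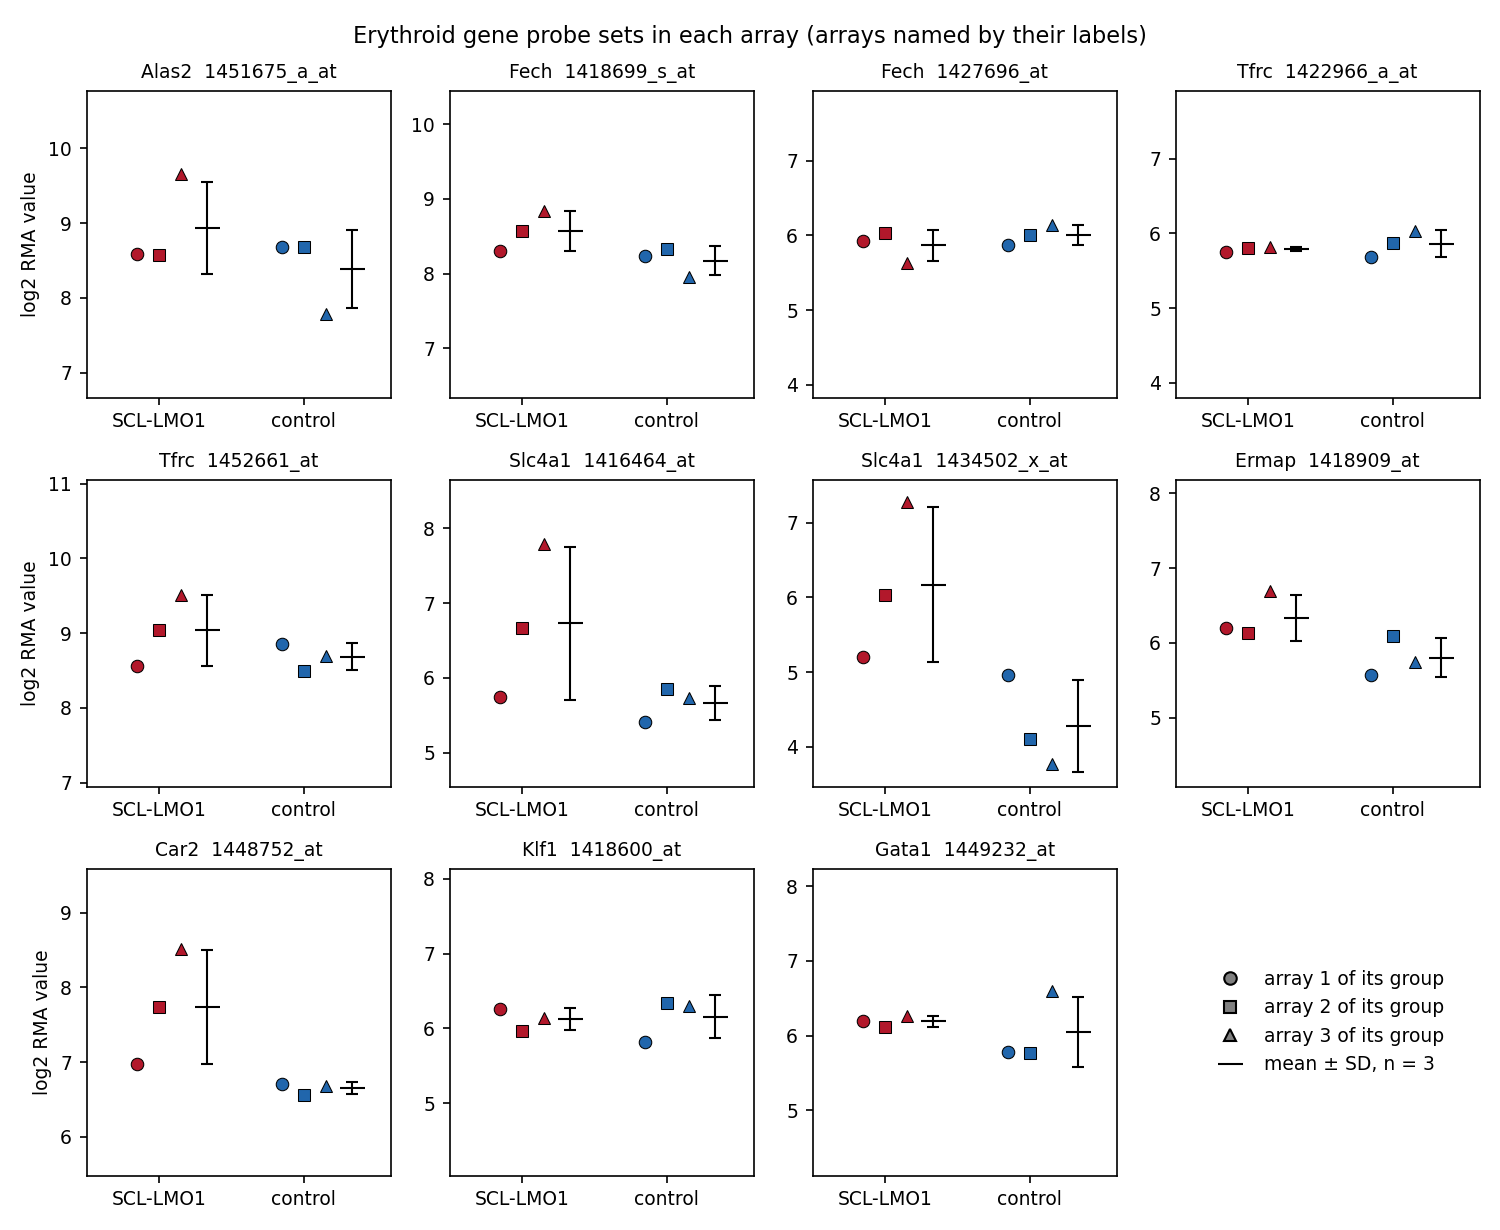
Log2 RMA values of the 11 tested erythroid probe sets (y axis, each panel spanning the same log2 range) in the arrays labelled SCL-LMO1 (red, left) and control (blue, right), with symbols for single arrays and bars for mean ± SD (n = 3). Slc4a1 1434502_x_at, Car2 and Ermap show no overlap of the groups, as do 7.36% of all probe sets tested in the same direction. SCL-LMO1 replicate 3 is the highest array in 7 panels.

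*Slc4a1* (chromosome 11, 102348820 to 102365281 in GRCm38.p6) encodes band 3, the main anion exchanger and membrane anchor of red cells. Its probe set 1416464_at had log2 values of 5.74, 6.67 and 7.79 in the arrays labelled *SCL-LMO1*, against 5.41, 5.85 and 5.73 in the arrays labelled control. The groups overlapped, since *SCL-LMO1* replicate 1 lay between control values while replicates 2 and 3 lay above them. The log2 difference was 1.07, or 2.10-fold (SE 0.42, adjusted p = 0.499). The study gives this gene the opposite direction. The difference was 0.54 without *SCL-LMO1* replicate 3.

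A second probe set of *Slc4a1*, 1434502_x_at, had 5.21, 6.03 and 7.28 in arrays labelled *SCL-LMO1*, against 4.96, 4.10 and 3.77 in arrays labelled control. All 3 arrays labelled *SCL-LMO1* lay above all 3 labelled control, as for 7.36% of all probe sets tested. The log2 difference of 1.90 (3.72-fold, SE 0.48, unadjusted p = 0.0031) had an adjusted p of 0.299. This probe set passed the filter only through the 3 arrays labelled *SCL-LMO1*, so it could hardly have entered the test without differing. The suffix _x marks a probe set with some probes that also match other sequences, so its signal is not certain to be *Slc4a1* alone.

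The third *Slc4a1* probe set, 1431743_a_at, ran at 4.71, 4.51 and 3.95 in arrays labelled *SCL-LMO1*, against 4.34, 4.61 and 4.94 in arrays labelled control. It lay under the filter in every array, and its log2 difference was −0.24. *SCL-LMO1* replicate 3, the highest array for the other probe sets of the gene, was the lowest for this one. The 3 probe sets of *Slc4a1* therefore did not move alike, although values under the filter say little of the level of the gene.

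*Car2* (chromosome 3, 14886269 to 14900770) encodes carbonic anhydrase II, which hydrates carbon dioxide in red cells and in several other cell types. It had 6.98, 7.74 and 8.51 in arrays labelled *SCL-LMO1*, against 6.71, 6.56 and 6.68 in arrays labelled control. The control arrays lay close together (SD 0.08) and below every array labelled *SCL-LMO1*, which were spread widely (SD 0.76). The log2 difference was 1.09, or 2.13-fold (SE 0.32, unadjusted p = 0.00744, adjusted p = 0.391), and 0.71 without *SCL-LMO1* replicate 3. Of the other carbonic anhydrases, 7 probe sets were tested, 0 were called and their median difference was −0.03. *Car1*, the other cytosolic form of red cells, stayed under the filter at 4.38 to 4.57 in arrays labelled *SCL-LMO1* and 4.34 to 4.49 in arrays labelled control.

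*Ermap* (chromosome 4, 119175457 to 119190013), an erythroid membrane protein of the immunoglobulin family that carries the Scianna blood group in humans, had 6.20, 6.13 and 6.69 in arrays labelled *SCL-LMO1*, against 5.57, 6.09 and 5.75 in arrays labelled control. The groups did not overlap, but *SCL-LMO1* replicate 2 and control replicate 2 were almost level. The log2 difference was 0.53 (1.45-fold, SE 0.20, adjusted p = 0.488). *Epb42* (chromosome 2, 121017891 to 121036877), protein 4.2, was not tested, since both of its probe sets lay under the filter. Probe set 1417337_at ran at 2.84, 3.04 and 3.23 in arrays labelled *SCL-LMO1*, against 2.77, 2.87 and 2.69 in arrays labelled control. Probe set 1417338_at ran at 4.91, 4.79 and 4.94 in arrays labelled *SCL-LMO1*, against 4.63, 4.87 and 5.31 in arrays labelled control. Both overlapped between the groups, with differences of 0.26 and −0.06 in a fit without the filter.

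*Alas2* (chromosome X, 150547417 to 150570622), the erythroid enzyme of the first and rate-limiting step of heme synthesis, had 8.58, 8.57 and 9.65 in arrays labelled *SCL-LMO1*, against 8.68, 8.69 and 7.79 in arrays labelled control. In each group 2 arrays lay close together at nearly the same level, *SCL-LMO1* replicate 3 stood 1.07 above the mean of the other 2 of its group and control replicate 3 was the lowest of all. The log2 difference was 0.55 (SE 0.33, adjusted p = 0.632), and 0.19 without *SCL-LMO1* replicate 3.

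*Fech* (chromosome 18) encodes ferrochelatase and was read by 4 probe sets. Probe set 1418699_s_at had 8.31, 8.57 and 8.84 in arrays labelled *SCL-LMO1*, against 8.24, 8.33 and 7.95 in arrays labelled control. *SCL-LMO1* replicate 1 fell just under control replicate 2, so that the groups overlapped, and the difference was 0.40 (SE 0.18, adjusted p = 0.564). The other tested probe set, 1427696_at, differed by −0.14 (SE 0.16, adjusted p = 0.774). Under the filter, 1418698_a_at had 3.99, 4.50 and 5.67 in arrays labelled *SCL-LMO1* against 4.64, 4.13 and 3.59 in arrays labelled control, and 1449181_at differed by 0.10. *SCL-LMO1* replicate 3 was the highest array for 3 of the 4 probe sets and the lowest for 1427696_at.

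*Tfrc* (chromosome 16, 32608896 to 32632794), the receptor that takes up transferrin-bound iron, is used by every dividing cell, thymocytes included, and not by red cell precursors alone. Probe set 1452661_at had 8.57, 9.04 and 9.51 in arrays labelled *SCL-LMO1*, against 8.86, 8.50 and 8.70 in arrays labelled control. The groups overlapped through *SCL-LMO1* replicate 1, and the difference was 0.35 (SE 0.23, adjusted p = 0.65). Probe set 1422966_a_at ran at 5.76 to 5.81 in arrays labelled *SCL-LMO1* and 5.68 to 6.03 in arrays labelled control, with a difference of −0.07 (SE 0.15, adjusted p = 0.867). Under the filter, 1422967_a_at ran at 3.50 to 3.64 in arrays labelled *SCL-LMO1* and 3.41 to 3.63 in arrays labelled control. The 3 Affymetrix control probe sets for *Tfrc* were low, at 3.00 to 4.38 in arrays labelled *SCL-LMO1* and 3.04 to 4.52 in arrays labelled control.

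**Figure D2:**
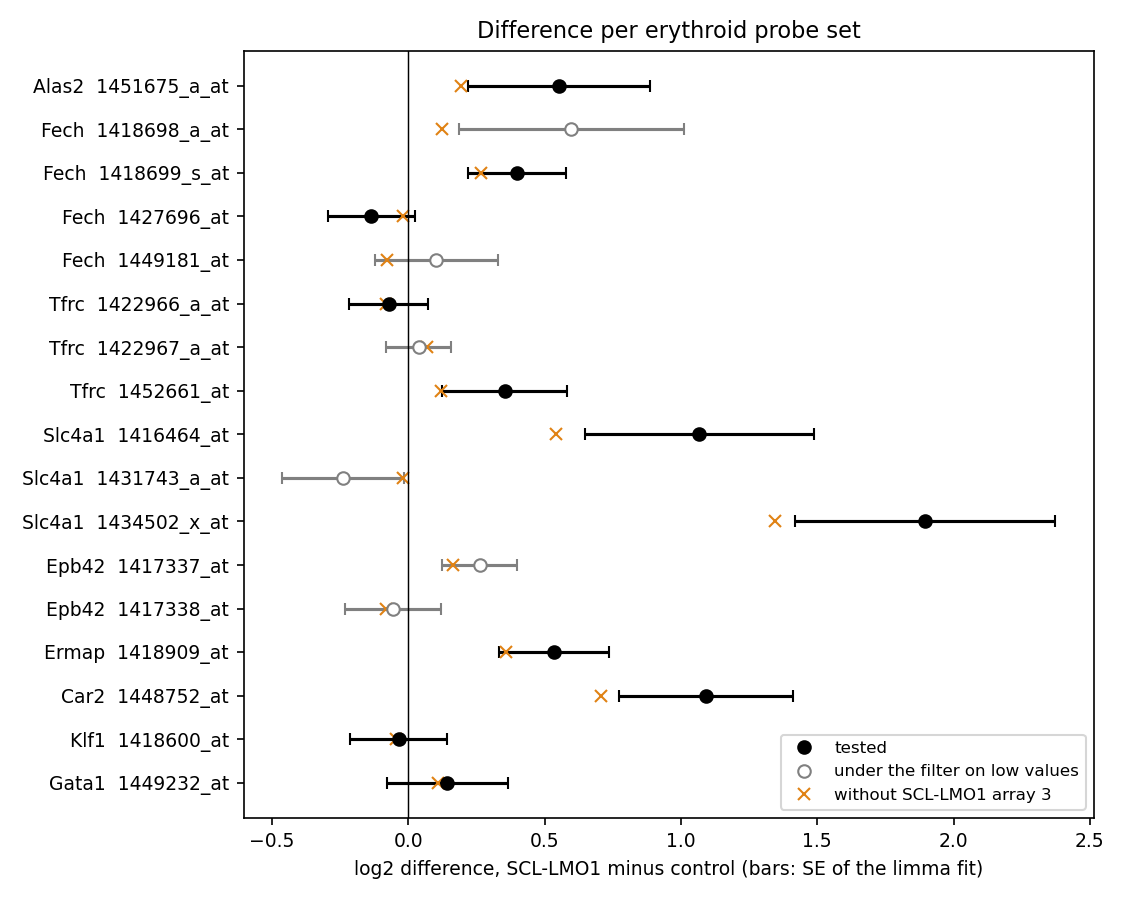
Log2 difference, SCL-LMO1 minus control by label (x axis), of the 17 erythroid probe sets (y axis) with the SE of the limma fit, for tested probe sets (black) and those under the filter on low values (open grey). Crosses give the difference without SCL-LMO1 replicate 3, which for Alas2 is 0.19 in place of 0.55 and for Slc4a1 1416464_at 0.54 in place of 1.07.

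*Klf1* (chromosome 8, 84901982 to 84905291), a zinc finger activator of the adult beta-globin gene, had 6.25, 5.97 and 6.15 in arrays labelled *SCL-LMO1*, against 5.82, 6.34 and 6.30 in arrays labelled control. The groups overlapped, and the difference was −0.03 (SE 0.18, adjusted p = 0.948), with its sign turned by median centring (0.01). *Gata1* (chromosome X, 7959260 to 7976663) had 6.20, 6.11 and 6.26 in arrays labelled *SCL-LMO1*, against 5.78, 5.77 and 6.59 in arrays labelled control. Control replicate 3 was both the highest array for *Gata1* and the lowest for *Alas2*, and the *Gata1* difference was 0.14 (SE 0.22, adjusted p = 0.83). Values of neither regulator followed those of the heme and membrane genes across the arrays.

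That pattern across arrays was the feature most of the effector genes shared. *SCL-LMO1* replicate 3 was the highest of the 6 arrays for 7 of the 11 tested probe sets, beside 19.8% of all probe sets tested. Without it the median difference of the erythroid probe sets was 0.19. Over the 6 arrays, the values of *Slc4a1* 1416464_at and *Car2* had a Pearson correlation of 0.96, both tested *Slc4a1* probe sets one of 0.86, and *Alas2* with *Fech* 1418699_s_at one of 0.91. *Fech* 1427696_at ran the other way, at −0.94 with *Alas2*, −0.65 with *Slc4a1* 1416464_at and −0.79 with *Slc4a1* 1434502_x_at. *Klf1* correlated at −0.22 with *Alas2* and −0.03 with *Slc4a1* 1416464_at, and *Gata1* at −0.32 and 0.26. These correlations describe 6 arrays that share 1 high array and a difference between groups.

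**Figure D3:**
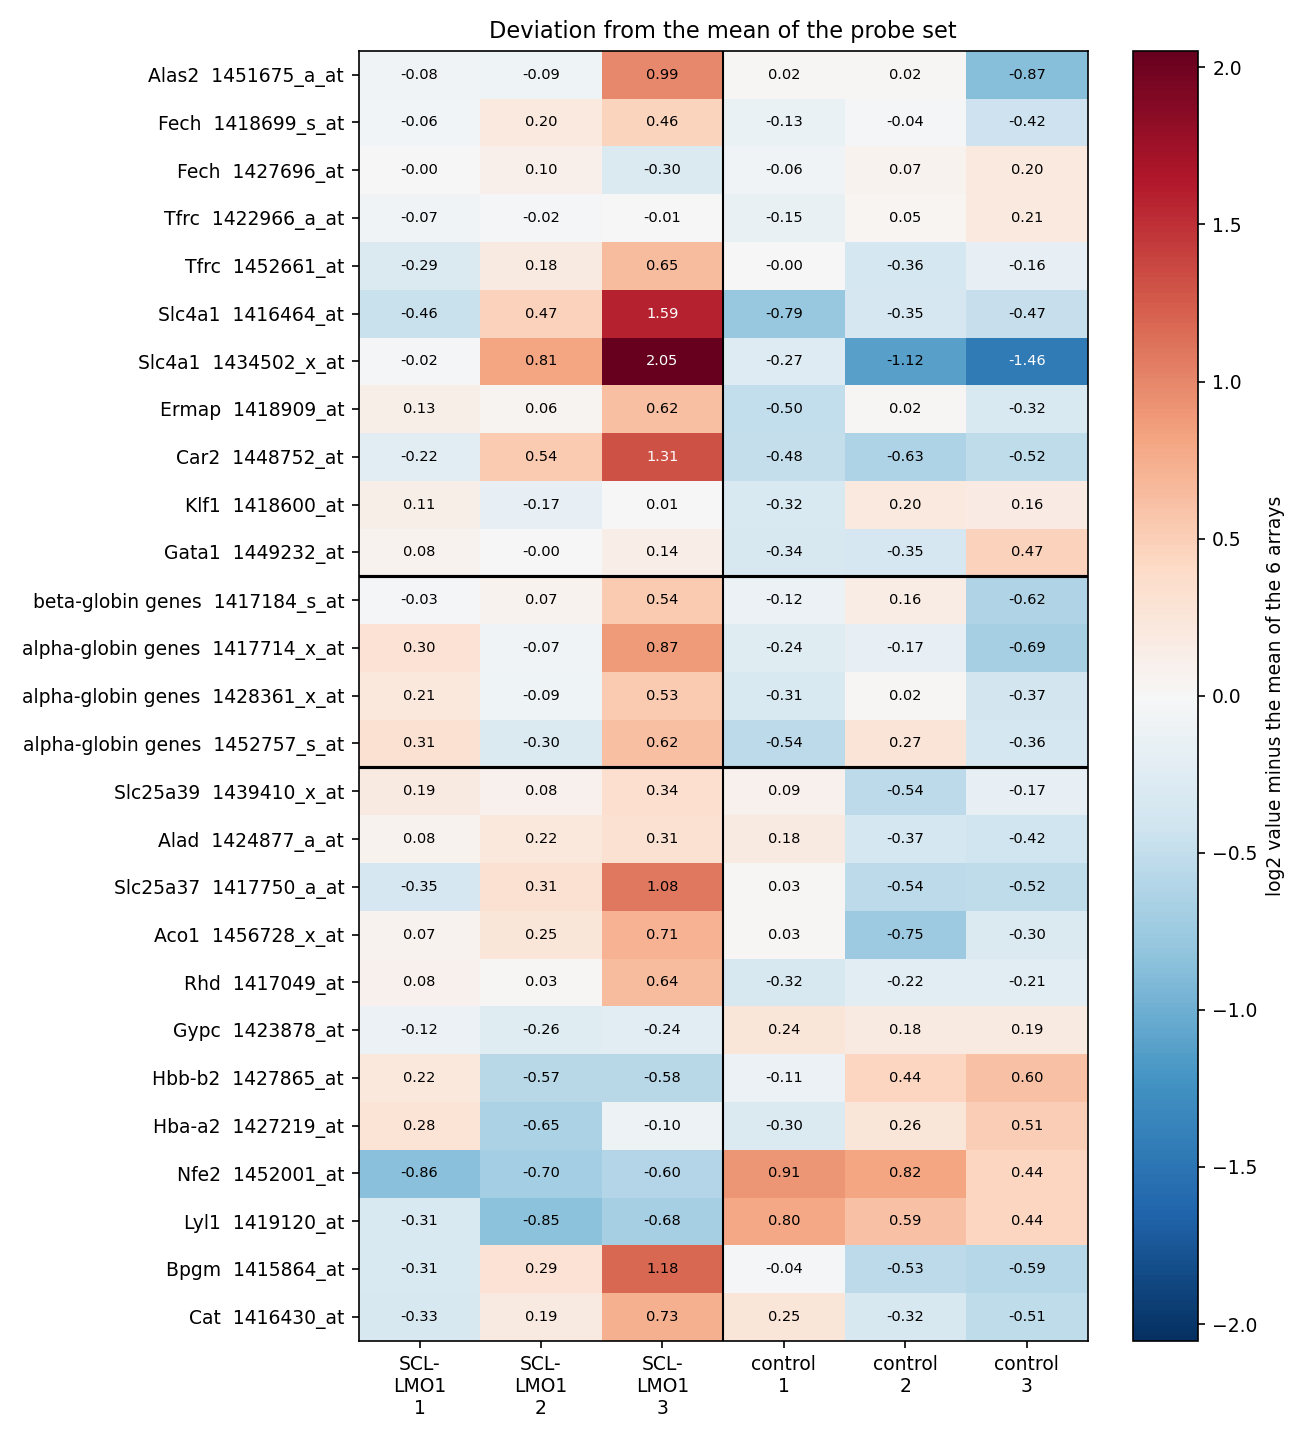
Log2 value minus the mean of the 6 arrays (colour and printed number) for each probe set (rows) in each array (columns), arrays labelled SCL-LMO1 left of those labelled control. Rows above the first line are the 11 tested erythroid probe sets, those between the lines are globin probe sets that name several genes, and those below are the 2 genes with the largest difference in each of 6 erythroid lists. SCL-LMO1 replicate 3 is the highest array in every row of the globin block and in 7 of the 12 rows below it. The exceptions below the globin block are Gypc, Hbb-b2, Hba-a2, Nfe2 and Lyl1. Above the first line they are Fech 1427696_at, Tfrc 1422966_a_at, Klf1 and Gata1.

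The difference also varied between the hybridization sets. In the low set, *SCL-LMO1* replicates 2 and 3 against control replicate 1, the median over the 11 probe sets was 0.43, *Slc4a1* 1416464_at differed by 1.81, *Car2* by 1.41 and *Alas2* by 0.43. In the high set, *SCL-LMO1* replicate 1 against control replicates 2 and 3, the median was 0.02, *Slc4a1* 1416464_at differed by −0.05, *Car2* by 0.36 and *Alas2* by 0.35. *Slc4a1* 1434502_x_at was higher in both sets, by 1.70 and 1.27. It passed the filter only through the arrays labelled *SCL-LMO1*, so its direction in the sets is no support. With 1 array on a side in each set, these are values without a test, and the part of the hybridization signal in the result was not tested.

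Globin genes, which are the most abundant transcripts of red cells, fall outside the 9, and 4 of their probe sets name several genes. The beta-globin probe set 1417184_s_at, which names 4 genes, had 12.74, 12.85 and 13.32 in arrays labelled *SCL-LMO1*, against 12.66, 12.93 and 12.16 in arrays labelled control (difference 0.39, SE 0.23, adjusted p = 0.625). The 3 alpha-globin probe sets that name 2 genes differed by 0.74, 0.44 and 0.42, each short of the threshold (adjusted p = 0.445, 0.56 and 0.646). All 4 were highest in *SCL-LMO1* replicate 3, as were *Alas2* and both tested probe sets of *Slc4a1*, and 3 of the 4 were lowest in control replicate 3. Probe sets that name a single globin gene did not all go the same way. *Hbb-b2* 1427865_at, *Hba-a2* 1427219_at and *Hbb-y* 1450621_a_at differed by −0.62, −0.31 and −0.17 and were highest in control replicate 3, while *Hbb-b2* 1427866_x_at differed by 0.53 (adjusted p = 0.545, 0.705, 0.746 and 0.573).

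Lists of other genes on the same pathways gave few calls. *SCL-LMO1* replicate 3 was the highest array for 4 of 15 probe sets of heme synthesis, 5 of 22 of iron and heme handling, 3 of 25 of the red cell membrane, 6 of 27 of erythroid regulators and 9 of 17 of red cell enzymes, beside 19.8% of all probe sets. Of 15 tested probe sets for the other heme synthesis genes 0 were called, and the median difference was 0.07. The largest were *Slc25a39*, a mitochondrial carrier for glutathione (0.41), and *Alad*, the enzyme of the step after *Alas2* (0.40). Of 22 probe sets for iron and heme handling 0 were called (median 0.01). There *Slc25a37*, the mitochondrial iron importer mitoferrin 1 of erythroid cells, had 7.18, 7.84 and 8.61 in arrays labelled *SCL-LMO1*, against 7.56, 6.99 and 7.01 in arrays labelled control (difference 0.69, adjusted p = 0.573). *Tfr2*, a second transferrin receptor, differed by −0.65 (adjusted p = 0.324). Of 25 probe sets for red cell membrane genes 0 were called, and their median was −0.11. *Rhd*, the Rh blood group antigen, differed by 0.51 (adjusted p = 0.486) and *Gypc*, glycophorin C, by −0.41 (adjusted p = 0.44), both without overlap of the groups. In this list 1 of 25 was higher without overlap and 3 were lower, beside 7.36% and 5.82% of all probe sets tested. *Bpgm*, which makes the bisphosphoglycerate that lowers the oxygen affinity of hemoglobin, differed by 0.78 (adjusted p = 0.553) in a list of red cell enzymes with 0 calls of 17 and a median of 0.08. Of 6 probe sets for single globin genes and a heme-regulated kinase, 0 were called (median −0.10).

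Among 27 probe sets of other erythroid regulators, 1 was called. *Nfe2*, the large subunit of a factor that binds globin control regions, had 6.44, 6.60 and 6.70 in arrays labelled *SCL-LMO1*, against 8.21, 8.12 and 7.74 in arrays labelled control, which is −1.44 on the log2 scale (SE 0.17) with an adjusted p of 0.0154. The list's median was −0.22, with 23 of 27 probe sets below 0. *Lyl1*, a relative of *SCL*, differed by −1.22 (adjusted p = 0.0589). *Hemgn*, a nuclear protein of erythroid precursors, differed by 0.67 (adjusted p = 0.57) and was highest in *SCL-LMO1* replicate 3. The regulators thus lay mostly below 0 while the 9 genes lay mostly above it, and this contrast carries no test.

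**Figure D4:**
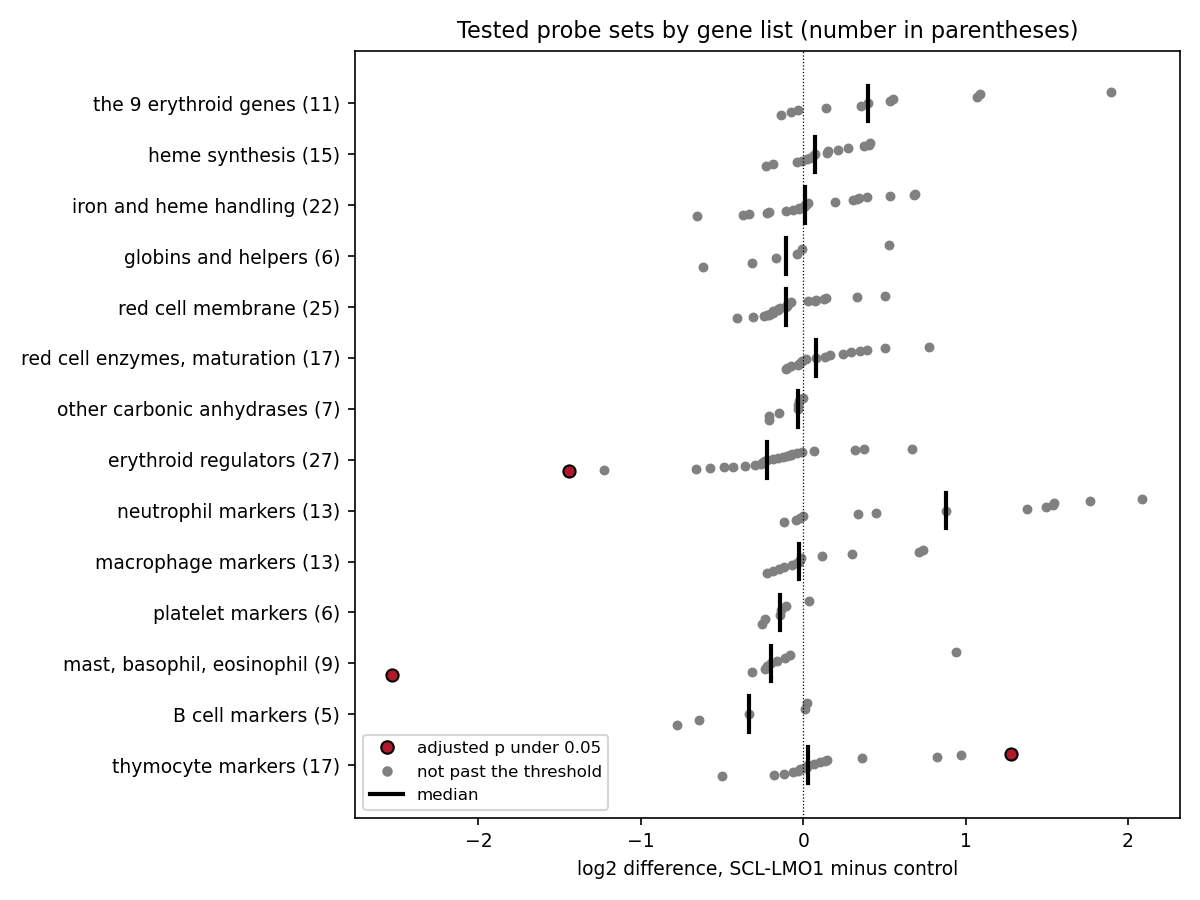
Log2 difference, SCL-LMO1 minus control by label (x axis), of every tested probe set in the 9 erythroid genes and in 13 lists of other genes (y axis, number of probe sets in parentheses), with the median of each as a bar and probe sets past an adjusted p of 0.05 in red. The 9 erythroid genes have a median of 0.40 and no call, and the 3 red points are Nfe2, Cpa3 and Ptcra.

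Markers of other cells were read on the same arrays, since they could move with the erythroid genes. The level of 13 neutrophil marker genes, as the mean of their log2 values, was 6.44 to 7.14 in arrays labelled *SCL-LMO1* and 5.57 to 6.20 in arrays labelled control. It was highest in *SCL-LMO1* replicate 3, the array that was highest for most erythroid genes. The order of *SCL-LMO1* replicates 1 and 2 differed, at 6.89 and 6.44 for neutrophil markers and 7.10 and 7.35 for 8 erythroid genes. Of the 13 neutrophil probe sets 10 lay above 0, with a median difference of 0.88 and 0 calls. At an unadjusted p under 0.05 in limma, 7 of the 13 were higher and 0 lower, beside 6.18% and 2.67% of all probe sets tested. Without overlap of the groups 7 of the 13 were higher, beside 7.36%. *S100a8*, a calcium-binding protein of neutrophils, differed by 2.09 (adjusted p = 0.11). Macrophage markers ran at 6.83 to 7.12 in arrays labelled *SCL-LMO1* and 6.60 to 6.94 in arrays labelled control, and platelet markers at 5.87 to 6.12 in arrays labelled *SCL-LMO1* and 6.001 to 6.22 in arrays labelled control. Mast cell, basophil and eosinophil markers ran at 6.02 to 6.22 in arrays labelled *SCL-LMO1* and 6.34 to 6.52 in arrays labelled control. *Cpa3*, a mast cell carboxypeptidase, was called lower (−2.53) and is part of that mean. Of the 9 tested probe sets in this list 8 lay below 0, with a median of −0.20. The other, for *Prg2*, differed by 0.94 (adjusted p = 0.288) and passed the filter only through the arrays labelled *SCL-LMO1*. B cell markers ran at 6.12 to 6.16 in arrays labelled *SCL-LMO1* and 6.25 to 6.71 in arrays labelled control. Thymocyte markers, which check the labelled tissue, ran at 9.11 to 9.43 in arrays labelled *SCL-LMO1* and 8.92 to 9.20 in arrays labelled control, and *Ptcra*, the pre-T-cell receptor alpha chain, was called higher (1.28). The part of blood or of other cells in the erythroid differences was not tested.

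Genes outside the 9 were ranked by how like their array pattern was. Of probe sets that name 1 gene, the 8 whose values correlated most with *Slc4a1* 1416464_at over the 6 arrays were those of *Arpp19*, *Mphosph8*, *Tmcc2*, *Hmgcs1*, *Rprd1b*, *Eif4h*, *Abhd17c* and *Abcg2*. Being highest in *SCL-LMO1* replicate 3, as they were, follows from that choice. *Tmcc2* had 5.99, 6.96 and 8.01 in arrays labelled *SCL-LMO1*, against 5.95, 6.19 and 5.80 in arrays labelled control (difference 1.01, adjusted p = 0.527), a spread like that of *Slc4a1*. *Eif4h*, a translation factor of all cells, spanned 0.34 over the arrays. The 8 most like *Alas2* were *Pitrm1*, *Pum2*, *Zbed4*, *Ppp1cb*, *Snx5*, *Usp14*, *Cnep1r1* and *Ets1*. *Ets1*, a transcription factor that thymocytes express strongly, had 9.80, 9.97 and 10.56 in arrays labelled *SCL-LMO1*, against 9.82, 9.79 and 9.25 in arrays labelled control (difference 0.49, adjusted p = 0.576), with the highest and the lowest array the same as for *Alas2*.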

How the data were processed

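Thymocyte RNA was measured on 6 arrays, 3 for each label. The deposited table holds log2 values for 22690 probe sets, which the authors summarized and normalized with RMA (affy package, versions not given in the sources used here). RMA gives all arrays the same distribution of probe signals. Before their Rank Products test the authors discarded probe sets without a MAS5 present call in either condition, a filter not repeated here.

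Genes were named from the platform annotation and placed through RefSeq by gene number. Probe sets at or above the 40th percentile of their array in at least 3 of the 6 arrays were kept, whatever the group, without Affymetrix controls (13776 tested). They were fitted together in limma 3.58.1 (R 4.3.3) without covariates, and p-values were adjusted by Benjamini-Hochberg over all of them, with a threshold of 0.05. With 3 arrays against 3, the smallest two-sided exact permutation p is 0.1, so no such test was run. Alternatives were the filter, the normalization, the variance model, array weights, a replicate block, the hybridization set, each array left out, 1 probe set per gene, a threshold of 0.1 and rank products over the 9 pairwise differences (own implementation, 100 permutations, percentage of false positives under 0.1). The fits were tested on simulated data.

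The members and lists were chosen with earlier results of these data known. The text names all 9 members and, of each list, the probe sets past the threshold. Of the up to 4 genes with the largest differences in a list it names only some. For macrophage, platelet and B cell markers it names none. It also names the 8 probe sets most correlated with the most abundant probe set of *Slc4a1* and of *Alas2*. *Car1* was added after its values were seen. Replicate numbers did not pair the arrays, whose same-numbered residuals correlated at −0.63, 0.05 and −0.38. How few arrays there are limits the precision of every value.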

Additional observations from a re-analysis of the deposited data

How the results depend on the processing

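The erythroid probe sets past the threshold stayed at 0 under every alternative except 2. With array weights, which gave *SCL-LMO1* replicate 2 the largest weight, 2 passed, *Slc4a1* 1434502_x_at (adjusted p = 0.0355) and *Car2* (adjusted p = 0.0462), among 360 of all probe sets (274 higher, 86 lower). With rank products 2 passed, again *Slc4a1* 1434502_x_at and *Car2*, among 108 (47 higher, 61 lower), or 0.341% of all probe sets for the higher ones. *Slc4a1* 1434502_x_at entered either test only through the group in which it is high, so its passing is no support. Over all probe sets, leaving out 1 array gave 7 to 20 calls (3 to 12 higher, 4 to 13 lower), a block for the hybridization set 12 lower and a second quantile normalization 11 lower. The replicate number as a block gave 8 (3 higher) and 0 erythroid ones, and same-numbered arrays had residual correlations of −0.63, 0.05 and −0.38. The median difference of the erythroid probe sets was 0.19 when *SCL-LMO1* replicate 3 was left out, 0.59 when replicate 1 of that group was, 0.25 after a second quantile normalization, 0.26 without the filter and 0.0155 within the high hybridization set. *Klf1* turned to 0.0812 in the fit with that block and to 0.0132 after median centring, and ran from −0.20 to 0.0585 with 1 array left out. *Tfrc* 1422966_a_at ran from −0.16 to 0.0133 with 1 array left out. The causes were not tested. The tests rest on 3 arrays a group, no detection call came with the values, and probe sets of *Epb42* and *Slc4a1* near the bottom of the range say little of their levels.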
